A study of Rattus norvegicus with 8 samples.

Results

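The genes described here are 34 genes of microglia, macrophages and complement, chosen by gene symbol from their known roles. They and the further lists below were chosen with earlier results of these data known. All 34 were listed in both of the deposited tables, which shared 15892 gene symbols. They fall into receptors of resting microglia, myeloid transcription factors, complement components, signalling adaptors, lysosomal and phagocytic genes, surface genes of leukocytes, pattern recognition genes, an antigen presentation gene, receptors of border macrophages, and a cytokine receptor with a chemokine. The samples were 4 hypothalamus and 4 hippocampus libraries from male Sprague Dawley rats, an outbred strain, that were 2 months old and took 15% fructose in their drinking water with chow supplemented with omega-3 fatty acids, docosahexaenoic acid (DHA) among them, for 6 weeks. Every library came from that single diet arm, so the contrast open to these data was hypothalamus against hippocampus, and no effect of fructose or of DHA was measured here. Whether the 4 libraries of a tissue came from separate animals was not stated in the labels, and the errors below are those between libraries.

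Microglia are the resident macrophages of the brain. They depend on signals through the CSF1 receptor, are kept in a resting state by TGF-beta and by the neuronal ligand CX3CL1, and sense released nucleotides through P2Y receptors. They are also the main source of C1q in the brain. C1q is assembled from A, B and C chains, starts the classical complement cascade and, with C3 further down, tags synapses and debris for uptake. Macrophages at the borders of the brain, in the meninges, around vessels and in the choroid plexus, share many of these genes and carry more of the mannose receptor and of class II histocompatibility molecules. In bulk tissue, more cells of a type and more RNA per cell cannot be told apart.

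Levels are FPKM, fragments set against transcript length and sequencing depth, after 1 scaling factor for each library. A gene was called higher or lower in hypothalamus when the mean difference of log2(FPKM + 1) was at least 1 in size, a 2-fold change of FPKM + 1, and the 4 libraries of hypothalamus did not overlap with the 4 of hippocampus. This understates the change of low genes. Of the genes in both tables, 10554 averaged 1 FPKM or more across all 8 libraries and were compared, and 31 of the 34 genes described here were among them. The tables had been made separately, so a difference between tissues and a difference between tables cannot be told apart by any of the tests. The labels of the tissues held against defining genes. Pmch, a neuropeptide precursor of the lateral hypothalamus, had 479 to 1114 FPKM in hypothalamus and 0.396 to 0.831 FPKM in hippocampus. Neurod6, a transcription factor of forebrain pyramidal neurons, had 0.430 to 1.3 FPKM in hypothalamus and 55.3 to 101.5 FPKM in hippocampus.

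Markers of other cell types differed between libraries and are given here before the results. The 7 choroid plexus genes listed in both tables summed to 17.5 to 87.0 FPKM in hypothalamus, against 41.5 and 42.6 FPKM in replicates 1 and 2 of hippocampus and 6830 and 5101 FPKM in its replicates 3 and 4. Ttr, the transthyretin gene of the choroid plexus, made up nearly all of those last sums, and Otx2, a transcription factor of that tissue, was listed at 0 in all 8 libraries. The 8 neuron genes summed to 1290.4 to 1594 FPKM in hypothalamus and 2251 to 2649 FPKM in hippocampus. Of the 8, 6 were lower in hypothalamus without overlap, beside 27.7% of all genes compared, while Tubb3, a neuronal tubulin, was called higher. The 6 mural genes summed to 243 to 509 FPKM in hypothalamus and 119 to 358 FPKM in hippocampus. Of the 6, 4 were higher without overlap, beside 25.7% of all genes compared, and only Tagln was called. Acta2 leaned the other way with overlap, at a mean of 114 FPKM in hypothalamus and 142 FPKM in hippocampus. The 5 fibroblast genes summed to 68.9 to 155 FPKM in hypothalamus and 23.7 to 49.1 FPKM in hippocampus. Col1a2, 1 of the 5, was listed at 0 in all 8 libraries. The 9 endothelial genes summed to 117 to 163 FPKM in hypothalamus and 177 to 216 FPKM in hippocampus but went both ways, with Cdh5 called higher in hypothalamus and Cldn5, Flt1 and Esam called lower. The 8 lymphocyte genes summed to 1.39 to 2.86 FPKM in hypothalamus and 2.79 to 5.82 FPKM in hippocampus, with the B cell gene Ms4a1 under 0.2 FPKM in every library. Cd3e, a T cell receptor chain, set the direction of that sum, at 0.148 to 0.584 FPKM in hypothalamus and 1.70 to 5.55 FPKM in hippocampus, while the means of the other genes of the list were higher in hypothalamus. The 6 neutrophil and monocyte genes summed to 74.9 to 843 FPKM in hypothalamus and 2.22 to 11.8 FPKM in hippocampus. In hypothalamus nearly all of that sum was Plac8. Of the neutrophil genes, S100a8 and Mmp8 stayed under 0.7 FPKM in every library, S100a9 averaged 1.63 ± 0.634 FPKM in hypothalamus and 0.441 ± 0.502 FPKM in hippocampus, and Lcn2 averaged 3.45 ± 0.437 FPKM in hypothalamus and 4.58 ± 3.54 FPKM in hippocampus (SD, n = 4 each). The part of these cell types in the results below was not tested, except where values without single libraries are given.

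The microglia, macrophage and complement genes had higher summed levels in hypothalamus. The 34 genes summed to 894, 1372, 1022 and 1054 FPKM in replicates 1 to 4 of hypothalamus, against 549, 455, 663 and 681 FPKM in replicates 1 to 4 of hippocampus, and the groups did not overlap. Of the 31 genes compared, 10 were called higher in hypothalamus, 0 were called lower and 21 were neither. Those 10 make 32.3% of the 31, beside 13.3% of all genes compared that were called higher and 13.4% that were called lower. By the lack of overlap alone, 14 of the 31 were higher (45.2%) and 0 were lower, beside 25.7% and 27.7% of all genes. Cd68, in both counts, and Ptprc, in the count of 14, averaged 0.794 and 0.586 FPKM in hippocampus. They passed the filter of 1 FPKM only through hypothalamus, which favoured this direction. Csf3r, in neither count, passed it only through hippocampus. The median difference was 0.59 for the 31 genes and −0.04 for all genes, and 26 of the 31 differences were above 0. The genes called were P2ry13, Spi1, C1qb, Fcer1g, Cd68, Laptm5, Lyz2, Cd53, Ly86 and Cd74.

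The count held with limma, a linear model across all genes, which called 11 of the 31 higher and 0 lower at a Benjamini-Hochberg adjusted p of 0.05 and a difference of at least 1, beside 13.8% of all genes higher and 13.6% lower. Under the tables as deposited, without the joint scaling, the median of all genes moved to 0.18, and 12 of the 31 genes were called higher and 0 lower, with a median of 0.82. In that setting 65.3% of all calls were on the side of hypothalamus, against 49.8% with the joint scaling.

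**Figure D1:**
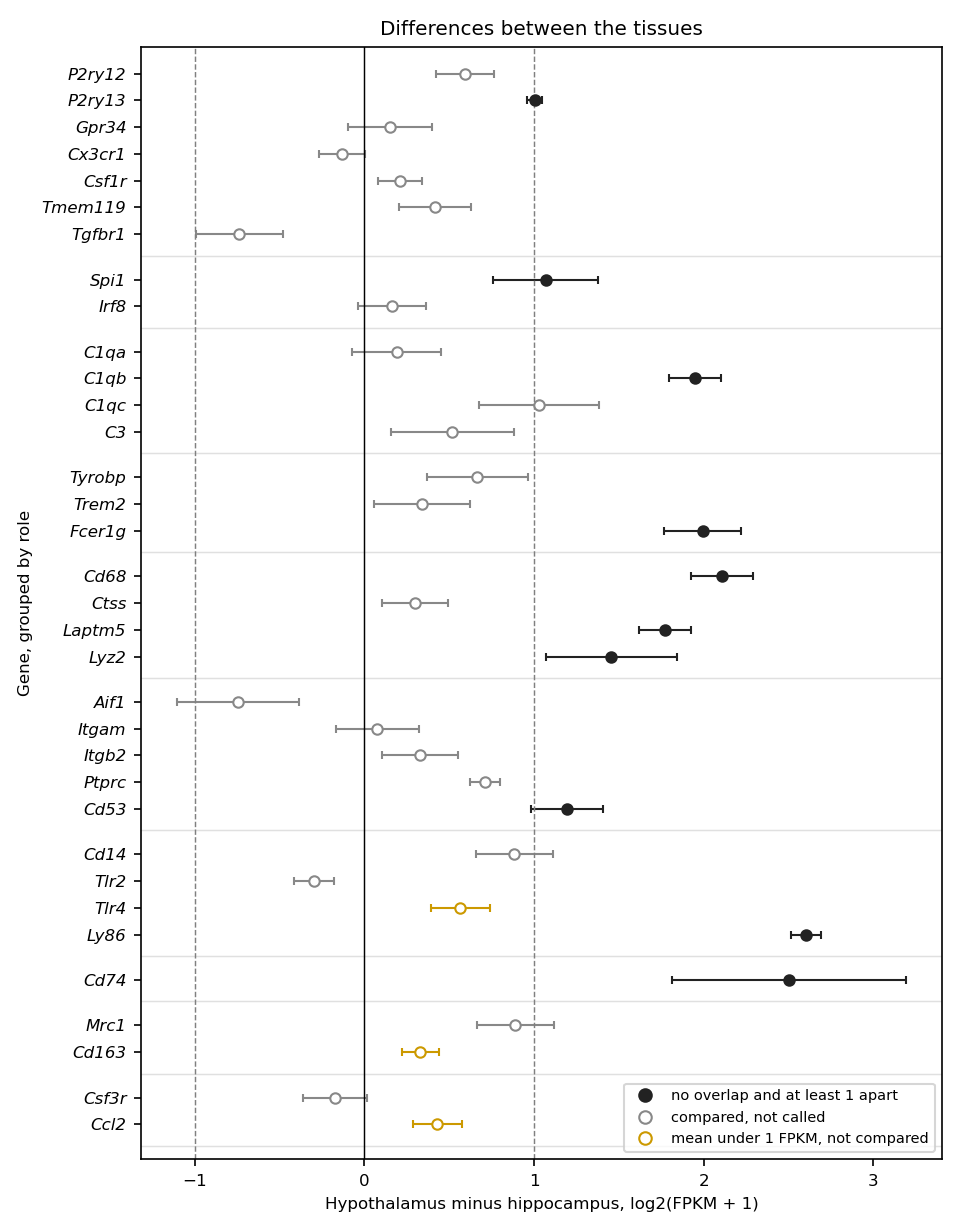
Difference of each of the 34 genes between hypothalamus and hippocampus on the scale of log2(FPKM + 1), with its standard error over 4 libraries of each tissue, grouped by role. The differences run from −0.74 for Aif1 and Tgfbr1 to 2.60 for Ly86, and the 10 called genes lie at 1 or above.

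The order of the genes by level was much the same in both tissues. Ctss, which encodes the lysosomal cysteine protease cathepsin S, was the highest of the 34 in both, with 207 ± 39.4 FPKM in hypothalamus and 169 ± 36.8 FPKM in hippocampus (SD, n = 4 each). In hypothalamus Lyz2, Cd74, Fcer1g, C1qb and C1qa followed, and in hippocampus C1qa, Lyz2, Aif1, Csf1r and Fcer1g. The 3 highest genes carried 46.1% of the summed level in hypothalamus and 47.2% in hippocampus. Neighbours in this order mostly overlapped: of 33 neighbouring pairs, 4 in hypothalamus and 2 in hippocampus had libraries without overlap. In hypothalamus 17 of the genes had a mean of at least 10 FPKM and 3 had a mean under 1 FPKM, against 13 and 5 in hippocampus. Across the 34 genes the rank correlation between the mean levels of the tissues was 0.895, which is a description over genes of shared libraries.

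**Figure D2:**
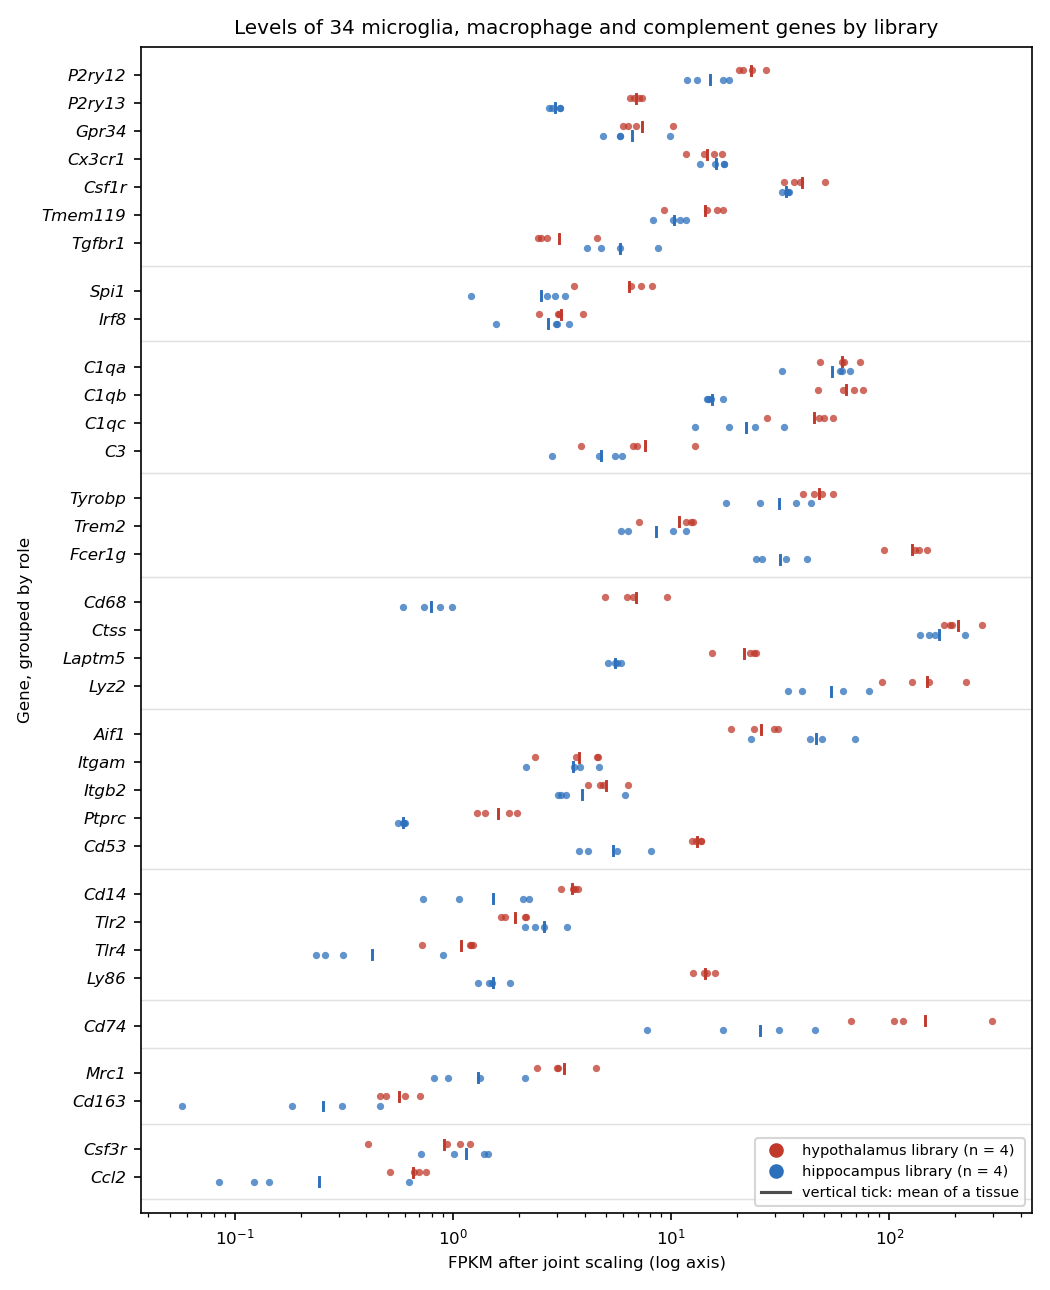
Level of each gene in every library, in FPKM after joint scaling on a log axis, with hypothalamus above hippocampus and a tick at the mean of each tissue. Ctss has the highest mean in both tissues, and the libraries of Ly86, Cd68, Cd74 and C1qb lie far apart between the tissues.

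Among the 7 receptors of resting microglia, 1 was called higher in hypothalamus (14.3%, beside 13.3% of all genes), and their median difference was 0.21. P2ry13, a purinergic receptor of microglia, had 6.71, 6.48, 7.32 and 7.09 FPKM in hypothalamus, against 3.08, 3.09, 2.76 and 2.84 FPKM in hippocampus. The groups lay well apart with a small spread, at a difference of 1.0 ± 0.05 (SE) that stood on the threshold itself: it was 0.98, 0.99, 0.98 and 0.99 without hypothalamus replicates 3 and 4 and without hippocampus replicates 3 and 4. P2ry12, the ADP receptor that steers microglial processes, lies next to P2ry13 on chromosome 2 with no protein-coding gene between them. It had 23.4, 21.3, 27.1 and 20.5 FPKM in hypothalamus, against 17.2, 13.1, 18.4 and 11.8 FPKM in hippocampus. Its groups did not overlap either, and its difference was 0.59 ± 0.17.

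The other receptors of resting microglia overlapped between the tissues. Cx3cr1, the receptor of fractalkine, had 11.7, 15.6, 17.1 and 14.1 FPKM in hypothalamus, against 17.5, 17.5, 15.8 and 13.5 FPKM in hippocampus, a difference of −0.13 ± 0.14. Csf1r, the growth factor receptor on which microglia depend, had 32.8, 50.6, 38.8 and 36.5 FPKM in hypothalamus, against 34, 32.2, 34.6 and 34.1 FPKM in hippocampus. Its hippocampal libraries were the most alike among those of the 34 genes that reached 1 FPKM there, while replicate 2 of hypothalamus stood above the rest. The difference was 0.21 ± 0.13, against 0.09 without that replicate and 0.56 with the highest locus in place of the sum. Tmem119, a surface marker that separates microglia from other macrophages, had 9.23, 16.2, 17.3 and 14.5 FPKM in hypothalamus, against 11.6, 8.27, 11 and 10.2 FPKM in hippocampus. Hypothalamus replicate 1 fell among the hippocampal values, the other three libraries lay above them, and the difference was 0.42 ± 0.21. Gpr34, a receptor for lysophosphatidylserine, averaged 7.34 ± 1.94 FPKM in hypothalamus and 6.58 ± 2.20 FPKM in hippocampus (SD, n = 4 each).

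Tgfbr1, the type 1 receptor of TGF-beta, had the lowest difference of this group, where Cx3cr1 was the other member below 0. It had 4.55, 2.53, 2.69 and 2.45 FPKM in hypothalamus, against 4.09, 8.64, 5.83 and 4.74 FPKM in hippocampus. Replicate 1 of hypothalamus alone reached the hippocampal range, and the difference was −0.74 ± 0.26. In the hippocampal table its level was summed from separate loci, which replicate 1 filled unlike the others: it had 4.04 FPKM at the first locus and 0.0517 FPKM at the second, against 1.14, 0.519 and 0.446 FPKM at the first and 7.50, 5.32 and 4.29 FPKM at the second in replicates 2 to 4. Without replicate 1 of both tissues the difference was −1.03 and the gene was called lower in hypothalamus. With the highest locus of the symbol in place of the sum it was −0.08, so the size rested on how the loci were joined.

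Of the transcription factors, Spi1 was called and Irf8 was not. Spi1 encodes PU.1, the factor that sets the myeloid lineage and binds purine-rich sites with the core GAGGAA. It had 3.6, 8.19, 7.25 and 6.54 FPKM in hypothalamus, against 2.70, 1.2, 3.26 and 2.93 FPKM in hippocampus. Hypothalamus replicate 1 came close to the hippocampal libraries without reaching them. The difference of 1.07 ± 0.31 passed under 1 without hypothalamus replicate 2 (0.95), hypothalamus replicate 3 (0.998) or hippocampus replicate 2 (0.85). Irf8, an interferon regulatory factor that works with PU.1, had 3.04, 3.91, 2.46 and 3.03 FPKM in hypothalamus, against 1.56, 2.98, 2.96 and 3.39 FPKM in hippocampus, and the groups overlapped at a difference of 0.16 ± 0.20. In hippocampus replicate 1 a second Irf8 locus was listed at 0, where the other three libraries had 1.93 to 2.40 FPKM. With the highest locus of the symbol in place of the sum the Irf8 difference was 0.78, and with quantile normalisation it was −0.004.

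The chains of C1q differed in how far they lay apart between the tissues. C1qb, the B chain, was called higher in hypothalamus, with 47.3, 75.9, 61.0 and 68.6 FPKM there, against 14.7, 14.5, 15.2 and 17.3 FPKM in hippocampus. All hypothalamic libraries stood far above the hippocampal ones, at a difference of 1.95 ± 0.15, or 3.86-fold in FPKM + 1. C1qa, the A chain, had 47.9, 60.5, 61.8 and 73.2 FPKM in hypothalamus, against 59.6, 32.2, 60.7 and 65.9 FPKM in hippocampus. Hippocampus replicate 2 was low and the other libraries of both tissues overlapped; the difference was 0.19 ± 0.26, and it was −0.05 without that replicate. C1qc, the C chain, had 27.4, 55.0, 47.6 and 50.2 FPKM in hypothalamus, against 24.3, 12.9, 18.3 and 32.7 FPKM in hippocampus. Its difference of 1.03 ± 0.35 was as large as that of P2ry13, but hypothalamus replicate 1 lay below hippocampus replicate 4, so it was not called; limma called it higher. It was called, at 1.25 and 1.23, without hypothalamus replicate 1 or without hippocampus replicate 4.

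Within a library the chains could be set against each other without any scaling between tables. C1qb stood to C1qa as 0.987, 1.26, 0.986 and 0.937 in hypothalamus, against 0.248, 0.451, 0.251 and 0.262 in hippocampus. The B chain was thus close to the A chain in hypothalamus and well under it in hippocampus, with no overlap. C1qc stood to C1qa as 0.571, 0.910, 0.769 and 0.686 in hypothalamus, against 0.408, 0.399, 0.302 and 0.497 in hippocampus, again with no overlap. FPKM of different genes depend on the transcript models used for their length, and those models were set in each table by its own processing. C1qb had 1 locus in the hypothalamic table and 2 in the hippocampal one, of which the smaller had 0, 0.458, 2.45 and 0.362 FPKM, so the sum over loci was little changed by it.

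**Figure D3:**
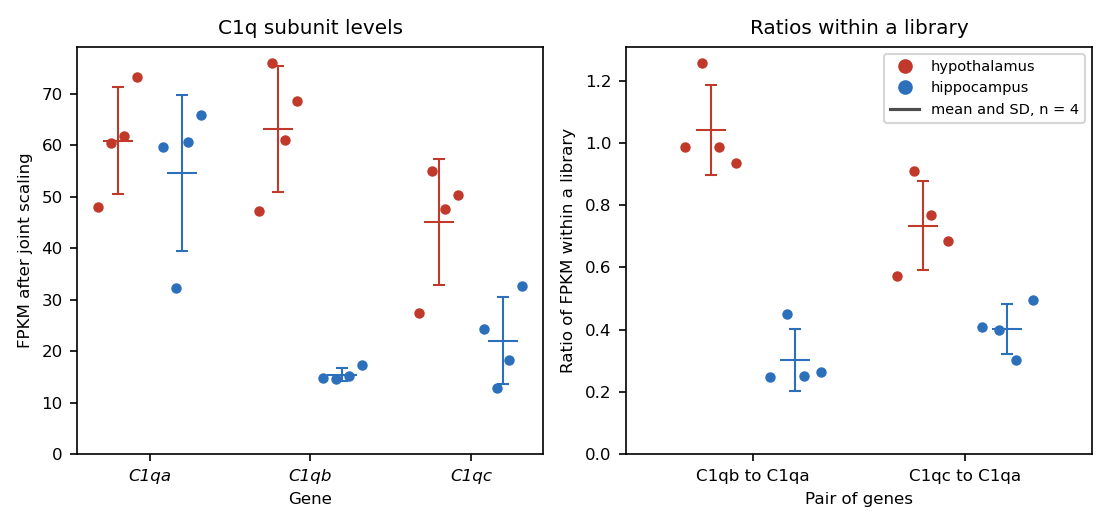
Levels of C1qa, C1qb and C1qc in every library (FPKM after joint scaling) and the ratios of C1qb and of C1qc to C1qa within each library. C1qa overlaps between the tissues, while the ratio of C1qb to C1qa is 0.937 to 1.26 in hypothalamus and 0.248 to 0.451 in hippocampus.

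The 3 C1q genes lie in a row on chromosome 5, in the order C1qb, C1qc and C1qa, with no other protein-coding gene between them. The starts of C1qa and C1qb are shown because these neighbours differ in how far the tissues lay apart. The sequences are from RefSeq (build GRCr8, not the build of the files), from 250 bases before to 50 bases after the gene's start, written 5′ to 3′ on the strand of the gene, and capitals mark the core of the PU.1 site, GAGGAA, or its reverse complement TTCCTC. C1qa lies on the minus strand at chr5:154419884-154420183 and holds no match. C1qb lies on the minus strand at chr5:154407778-154408077 and holds 2 matches, whose first bases lie 247 and 90 bases before the start.
C1qa: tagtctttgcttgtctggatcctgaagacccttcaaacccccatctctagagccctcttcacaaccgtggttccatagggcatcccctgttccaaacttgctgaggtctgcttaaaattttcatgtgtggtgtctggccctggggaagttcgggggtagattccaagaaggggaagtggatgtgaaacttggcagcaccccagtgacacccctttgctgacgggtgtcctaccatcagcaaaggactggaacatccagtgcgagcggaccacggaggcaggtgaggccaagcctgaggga
C1qb: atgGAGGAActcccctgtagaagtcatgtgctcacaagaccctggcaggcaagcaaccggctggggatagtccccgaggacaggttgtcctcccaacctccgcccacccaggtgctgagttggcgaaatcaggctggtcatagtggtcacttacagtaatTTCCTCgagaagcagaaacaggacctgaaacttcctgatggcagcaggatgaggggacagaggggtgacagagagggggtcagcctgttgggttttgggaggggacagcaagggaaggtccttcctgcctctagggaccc

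C3, the component on which the complement pathways converge, was lower than the C1q chains and overlapped. It had 3.87, 12.8, 6.92 and 6.70 FPKM in hypothalamus, against 2.84, 5.49, 5.97 and 4.65 FPKM in hippocampus, a difference of 0.52 ± 0.36. Replicate 2 of hypothalamus was the highest of the 8 libraries, and without it the difference was 0.26. Of 10 further complement genes compared, 5 were called higher and 0 lower, beside 13.3% and 13.4% of all genes. Their median difference was 1.19. Counted without overlap alone, 6 were higher and 1 lower, beside 25.7% and 27.7% of all genes. The lower gene was Masp2, with 2.08 to 3.19 FPKM in hypothalamus and 3.47 to 7.59 FPKM in hippocampus. Its difference was −0.64 ± 0.22. Serping1, which encodes the C1 inhibitor, had 33.6, 62.7, 51.7 and 45.4 FPKM in hypothalamus, against 4.20, 4.52, 6.99 and 12.3 FPKM in hippocampus, a difference of 2.70 ± 0.36. C1r, a serine protease of the C1 complex, averaged 18.4 ± 3.68 FPKM in hypothalamus and 3.89 ± 1.13 FPKM in hippocampus (SD, n = 4 each), a difference of 2.00 ± 0.22. The highest of these genes was Clu, clusterin, an inhibitor of the terminal complex that astrocytes also make, at 1821 ± 145 FPKM in hypothalamus and 611 ± 193 FPKM in hippocampus. Serping1 and C1r are also made by fibroblasts and vessel cells, and the fibroblast genes moved the same way, as given above; their part was not tested.

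Of the adaptors that signal through ITAM motifs and their receptor, Fcer1g was called. Fcer1g, the common gamma chain of Fc receptors, had 94.1, 148, 130.4 and 136 FPKM in hypothalamus, against 24.3, 25.9, 33.6 and 42.1 FPKM in hippocampus. The groups were far apart, at a difference of 1.99 ± 0.23, or 3.98-fold in FPKM + 1. Tyrobp, the adaptor DAP12, had 40.4, 55.1, 44.9 and 49.3 FPKM in hypothalamus, against 43.8, 17.7, 25.4 and 37.1 FPKM in hippocampus. Hippocampus replicate 1 fell among the hypothalamic values, and the difference was 0.67 ± 0.30. In the hippocampal table Tyrobp was summed over 2 loci, with 13.6, 7.31, 14.8 and 17.0 FPKM at the first and 30.3, 10.4, 10.6 and 20.1 FPKM at the second. With the highest locus alone the difference was 1.47 and the gene was called higher. Trem2, the lipid-sensing receptor that pairs with DAP12, had 7.07, 12.3, 11.7 and 12.5 FPKM in hypothalamus, against 6.36, 5.90, 10.2 and 11.6 FPKM in hippocampus. Its low hypothalamic library was replicate 1, and the difference was 0.34 ± 0.28.

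The lysosomal and phagocytic genes held the most calls, with 3 of 4 called higher (75.0%, beside 13.3% of all genes). Their median difference was 1.61. Cd68, a lysosomal membrane protein used as a marker of phagocytic macrophages, had 4.99, 9.56, 6.29 and 6.65 FPKM in hypothalamus, against 0.865, 0.737, 0.989 and 0.586 FPKM in hippocampus. It was under 1 FPKM in every hippocampal library and at about 5 or more in every hypothalamic one, a difference of 2.11 ± 0.18. Cd68 thus passed the filter of 1 FPKM only through hypothalamus. Laptm5, a lysosomal membrane protein of blood-lineage cells, had 15.4, 23.8, 22.9 and 24.4 FPKM in hypothalamus, against 5.87, 5.12, 5.64 and 5.51 FPKM in hippocampus. The hippocampal libraries lay close together and replicate 1 was the lowest in hypothalamus, at a difference of 1.77 ± 0.15. Lyz2, the lysozyme of myeloid cells, had 92.1, 224, 127 and 152 FPKM in hypothalamus, against 39.5, 34.3, 61.6 and 80.5 FPKM in hippocampus. The nearest libraries were replicate 1 of hypothalamus and replicate 4 of hippocampus, and the difference was 1.46 ± 0.39. Ctss had 265, 191, 194 and 177 FPKM in hypothalamus, against 162, 139, 222 and 152 FPKM in hippocampus, with overlap and a difference of 0.30 ± 0.19.

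The starts of the 3 called lysosomal genes are shown with the same marks, because these genes were called. Ctss, the member of the group that was not called, also holds the core, 15 bases before its start, so the letters do not part the called genes from it. Cd68 lies on the minus strand at chr10:54882392-54882691, with matches that begin 27 bases before the start and at base 5 from it. Laptm5 lies on the plus strand at chr5:148371630-148371929, with a match that begins 63 bases before the start, and Lyz2 on the minus strand at chr7:54797962-54798261, with a match that begins 46 bases before it.
Cd68: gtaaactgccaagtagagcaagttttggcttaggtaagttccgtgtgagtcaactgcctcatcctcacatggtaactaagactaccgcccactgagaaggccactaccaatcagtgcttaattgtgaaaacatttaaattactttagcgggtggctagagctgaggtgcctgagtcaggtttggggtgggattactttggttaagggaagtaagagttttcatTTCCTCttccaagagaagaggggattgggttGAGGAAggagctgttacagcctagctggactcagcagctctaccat
Laptm5: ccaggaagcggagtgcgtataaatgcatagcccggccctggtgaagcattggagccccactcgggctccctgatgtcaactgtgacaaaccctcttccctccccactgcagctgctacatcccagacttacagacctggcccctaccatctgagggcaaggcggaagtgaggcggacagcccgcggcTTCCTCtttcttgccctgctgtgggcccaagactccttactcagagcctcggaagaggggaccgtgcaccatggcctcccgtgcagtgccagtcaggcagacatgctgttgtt
Lyz2: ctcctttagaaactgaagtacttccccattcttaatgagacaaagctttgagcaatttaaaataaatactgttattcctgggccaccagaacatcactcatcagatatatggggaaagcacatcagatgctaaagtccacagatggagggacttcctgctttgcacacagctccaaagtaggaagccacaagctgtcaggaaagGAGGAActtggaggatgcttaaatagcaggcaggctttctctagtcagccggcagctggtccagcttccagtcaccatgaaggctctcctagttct

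RefSeq starts were matched for 24 of the 34 genes. The letters GAGGAA, on either strand, occurred in 16 of the 24 (66.7%), beside 9239 of the 33469 starts in the table (27.6%). They occurred in 6 of the 7 called genes with a start (85.7%) and in 9 of the 15 that were compared and not called (60.0%). A match is a run of letters and no measured site, and no binding was measured here.

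Among the cytoskeletal, integrin and leukocyte surface genes, 1 of 5 was called. Cd53, a tetraspanin of leukocytes, had 13.7, 13.7, 12.4 and 12.9 FPKM in hypothalamus, against 3.76, 8.10, 5.62 and 4.16 FPKM in hippocampus. Its hypothalamic libraries were the most alike among those of the 34 genes that reached 1 FPKM, and the difference was 1.19 ± 0.21. Ptprc, which encodes CD45, averaged 1.61 ± 0.324 FPKM in hypothalamus and 0.586 ± 0.0193 FPKM in hippocampus (SD, n = 4 each), without overlap but at a difference of 0.71 ± 0.09. Ptprc passed the filter of 1 FPKM only through hypothalamus. Aif1, the calcium-binding protein Iba1 by which microglia are usually stained, leaned the other way. It had 29.5, 24.0, 18.9 and 30.9 FPKM in hypothalamus, against 43.2, 23.1, 49.1 and 69.8 FPKM in hippocampus. Hippocampus replicate 2 fell among the hypothalamic libraries, so the difference of −0.74 ± 0.36 was not called; without that replicate it was −1.04 and Aif1 was called lower in hypothalamus. Itgb2, the common beta chain of the leukocyte integrins, had 4.14, 6.30, 4.70 and 4.85 FPKM in hypothalamus, against 3.03, 3.12, 3.27 and 6.15 FPKM in hippocampus, where replicate 4 stood apart. Itgam, the alpha chain CD11b, averaged 3.79 ± 1.04 FPKM in hypothalamus and 3.55 ± 1.03 FPKM in hippocampus.

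Of the 3 pattern recognition genes compared, Ly86 was called higher (33.3%, beside 13.3% of all genes). Ly86, also called MD-1, binds the receptor RP105 and takes part in sensing lipopolysaccharide. It had 14.6, 15.9, 12.6 and 14.1 FPKM in hypothalamus, against 1.3, 1.5, 1.82 and 1.46 FPKM in hippocampus. Both groups were tight, and the difference was 2.60 ± 0.09, or 6.07-fold in FPKM + 1. This was the largest of the 34 differences with the settings used throughout, but Cd74 passed it with quantile normalisation (2.57 for Cd74, 2.52 for Ly86), without hypothalamus replicate 1 (2.80 and 2.58), and without hippocampus replicate 3 (2.67 and 2.65) or replicate 4 (2.85 and 2.59). Cd14, the coreceptor for lipopolysaccharide, averaged 3.51 ± 0.263 FPKM in hypothalamus and 1.53 ± 0.746 FPKM in hippocampus (SD, n = 4 each). Its groups did not overlap at a difference of 0.88 ± 0.23, which was 1.02 and called without hippocampus replicate 4. Tlr2, a receptor for bacterial lipoproteins, averaged 1.92 ± 0.270 FPKM in hypothalamus and 2.60 ± 0.505 FPKM in hippocampus, a difference of −0.30 ± 0.12 with overlap. Tlr4, the receptor for lipopolysaccharide itself, was too low to be compared, with 1.23, 1.2, 1.2 and 0.717 FPKM in hypothalamus, against 0.235, 0.899, 0.257 and 0.311 FPKM in hippocampus. In each tissue a single library of Tlr4 stood apart from the other three.

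Cd74, the invariant chain that escorts class II histocompatibility molecules, was called and was also the most variable of the genes in both tissues. It had 66.6, 294, 115 and 105 FPKM in hypothalamus, against 7.73, 17.3, 31.2 and 45.4 FPKM in hippocampus. Every hypothalamic library lay above every hippocampal one, with replicate 2 of hypothalamus and replicate 4 of hippocampus the highest of their tissue, and the difference was 2.50 ± 0.69. Hippocampus replicates 3 and 4 were those with the high choroid plexus genes, and hypothalamus replicate 2 had the highest choroid plexus sum of its tissue. That sum was mostly Ttr, at 76.9 of 87.0 FPKM. Aqp1 and Sostdc1 were also highest in hypothalamus replicate 2, but Kl and Clic6 were highest in other libraries. Kcne2 was lowest there, at 1.14 FPKM. The part of choroid plexus in the Cd74 level of hypothalamus replicate 2 was not tested. Without hippocampus replicates 3 and 4 the difference was 3.29, and without these and hypothalamus replicate 2 it was 2.88.

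Of 7 further class II genes, 4 could be compared and 4 were called higher, beside 13.3% of all genes, with a median difference of 2.37. RT1-Ba and RT1-Bb averaged 0.950 and 0.372 FPKM in hippocampus and passed the filter only through hypothalamus, which favoured this direction. RT1-DMa, RT1-DMb and Ciita were not compared. They averaged 0.0334, 0.192 and 0.146 FPKM in hypothalamus and 0.0341, 0.0484 and 0.0655 FPKM in hippocampus. RT1-Bb, a class II beta chain, had 4.80, 11.9, 3.38 and 7.74 FPKM in hypothalamus, against 0.0648, 0, 0.359 and 1.06 FPKM in hippocampus, a difference of 2.47 ± 0.41. RT1-Db1, the beta chain of the other class II molecule, had 7.98, 31.2, 7.82 and 5.22 FPKM in hypothalamus, against 1.04, 0.435, 1.18 and 2.16 FPKM in hippocampus, a difference of 2.40 ± 0.57. The most abundant was RT1-Da, an alpha chain, at 25.1 ± 16.4 FPKM in hypothalamus and 5.77 ± 4.55 FPKM in hippocampus (SD, n = 4 each). As for Cd74, hypothalamus replicate 2 and hippocampus replicate 4 were the highest of their tissue for each of the 4 genes.

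**Figure D4:**
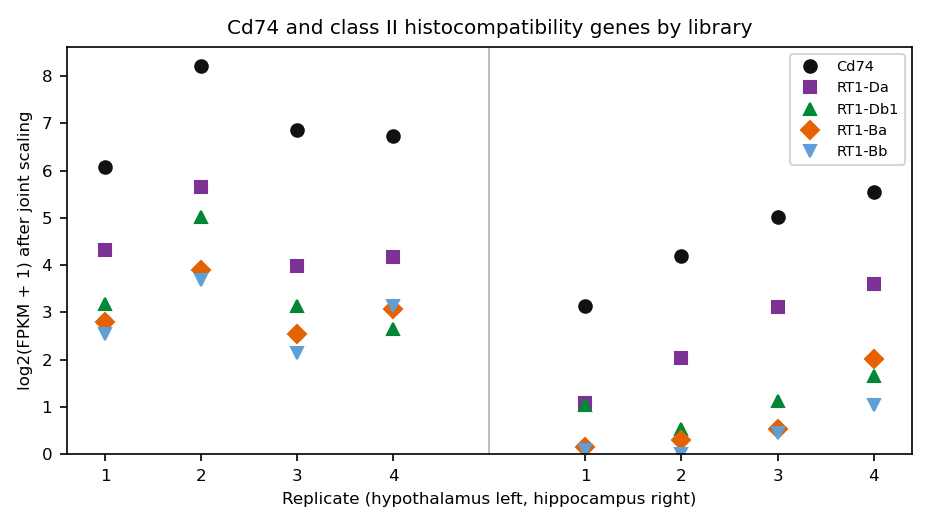
Cd74 and 4 class II genes in every library, as log2(FPKM + 1) after joint scaling, with hypothalamus left of hippocampus. Replicate 2 of hypothalamus and replicate 4 of hippocampus are the highest of their tissue for each gene.

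The receptors of border macrophages were low. Mrc1, the mannose receptor, had 2.42, 4.51, 3.01 and 2.98 FPKM in hypothalamus, against 0.942, 0.814, 1.32 and 2.13 FPKM in hippocampus. The groups did not overlap and the difference was 0.89 ± 0.23, which was 1.05 and called without hippocampus replicate 4. Cd163, the scavenger receptor for haemoglobin complexes, had 0.702, 0.463, 0.493 and 0.603 FPKM in hypothalamus, against 0.310, 0.0567, 0.182 and 0.459 FPKM in hippocampus. The lowest hypothalamic value, 0.463 FPKM, was hardly above the highest hippocampal one, 0.459 FPKM, and Cd163 was too low to be compared. Of 5 further border macrophage genes compared, 3 were called higher (60.0%, beside 13.3% of all genes) and 0 lower, with a median difference of 1.32. The 3 called, Lyve1, Pf4 and F13a1, averaged 0.434, 0.935 and 0.491 FPKM in hippocampus. They passed the filter of 1 FPKM only through hypothalamus, so the filter favoured the direction of this count. Pf4, a chemokine of platelets and of border macrophages, had 23.0, 13.3, 8.86 and 10.4 FPKM in hypothalamus, against 0.318, 1.12, 1.51 and 0.789 FPKM in hippocampus, a difference of 2.90 ± 0.34. F13a1, a transglutaminase of these macrophages, averaged 2.93 ± 0.286 FPKM in hypothalamus and 0.491 ± 0.234 FPKM in hippocampus, a difference of 1.41 ± 0.12. Maf, a macrophage transcription factor that other cells also express and the highest of this list, averaged 14.6 ± 3.87 FPKM in hypothalamus and 10.04 ± 1.17 FPKM in hippocampus and was not called. Alas2 was the only 1 of 5 erythroid genes listed for both tissues. It had 18.5, 13.7, 3.23 and 6.65 FPKM in hypothalamus, against 3.19, 3.20, 1.69 and 5.52 FPKM in hippocampus, and the groups overlapped. Hbb-b1, a haemoglobin gene listed for hypothalamus alone, had 114, 35.2, 15.8 and 18.0 FPKM there. The part of blood in the Pf4 level was not tested.

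The last group, a cytokine receptor and a chemokine, stayed near or under 1 FPKM. Csf3r, the receptor of granulocyte colony-stimulating factor, averaged 0.903 ± 0.347 FPKM in hypothalamus and 1.14 ± 0.345 FPKM in hippocampus (SD, n = 4 each), a difference of −0.17 ± 0.19. Ccl2, a chemokine that draws monocytes, had 0.659, 0.751, 0.513 and 0.695 FPKM in hypothalamus, against 0.143, 0.0844, 0.122 and 0.625 FPKM in hippocampus. Replicate 4 of hippocampus stood apart at the hypothalamic level, and Ccl2 was too low to be compared.

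Other genes of the same cells mostly leaned to hypothalamus, with 32 of 39 differences above 0. Of 39 further microglia genes compared, 8 were called higher (20.5%) and 2 lower in hypothalamus, beside 13.3% and 13.4% of all genes. Their median difference was 0.57. By the lack of overlap alone, 21 were higher (53.8%) and 3 lower, beside 25.7% and 27.7% of all genes. Cybb and Crybb1, among those called higher, averaged 0.283 and 0.597 FPKM in hippocampus and passed the filter only through hypothalamus. Cyba, a subunit of the NADPH oxidase, had 34, 55.9, 34.1 and 50.3 FPKM in hypothalamus, against 3.79, 1.64, 3.05 and 4.61 FPKM in hippocampus, a difference of 3.4 ± 0.30. Coro1a, an actin-binding protein of leukocytes that neurons also express, had 27.1, 24.6, 24.5 and 25.7 FPKM in hypothalamus, against 251, 220.0, 165 and 196 FPKM in hippocampus, a difference of −2.97 ± 0.13. Coro1a also had the highest mean of this list. Slc2a5, which encodes the fructose transporter GLUT5 of microglia, averaged 4.92 ± 1.41 FPKM in hypothalamus and 2.93 ± 0.6 FPKM in hippocampus and was not called at 0.57 ± 0.19; it was named for the diet of these animals and outside the rule for named genes.

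Ligands and partners of the microglial receptors, the receptors Tgfbr2 and Sirpa among them, were measured beside them. Of 8 compared, 1 was called higher (12.5%) and 1 lower, beside 13.3% and 13.4% of all genes. Their median difference was 0.17. Tgfb1, the ligand of the TGF-beta receptor, had 12.4, 19.8, 17.6 and 17.8 FPKM in hypothalamus, against 3.93, 4.04, 4.31 and 5.76 FPKM in hippocampus, a difference of 1.69 ± 0.17. Cx3cl1, the neuronal ligand of CX3CR1, had 41.4, 86.4, 85.7 and 77.3 FPKM in hypothalamus, against 342, 219, 308 and 401 FPKM in hippocampus, a difference of −2.14 ± 0.31. The receptor Cx3cr1 itself overlapped between the tissues, as given above.

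Of 17 macrophage activation genes compared, 8 were called higher (47.1%) and 2 lower, beside 13.3% and 13.4% of all genes. Their median difference was 1.06. Ccl5 and Cxcl10, among those called higher, averaged 0.466 and 0.471 FPKM in hippocampus and passed the filter only through hypothalamus. Tnf, the cytokine tumour necrosis factor, had 0.0979, 12.2, 1.05 and 6.38 FPKM in hypothalamus, against 23.2, 45.1, 37.9 and 30.0 FPKM in hippocampus, a difference of −3.14 ± 0.85 with wide scatter in hypothalamus. Lpl, lipoprotein lipase, which hippocampal neurons also express, averaged 4.32 ± 0.563 FPKM in hypothalamus and 28.0 ± 6.58 FPKM in hippocampus, a difference of −2.43 ± 0.17. Apoe, an apolipoprotein made mostly by astrocytes, was the highest of this list at 3831 ± 418 FPKM in hypothalamus and 897 ± 349 FPKM in hippocampus (SD, n = 4 each). The cytokines Il1b and Il6 were under 0.5 FPKM in every library and were not compared.

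Libraries of the same tissue differed in the level of these genes. The median SD of log2(FPKM + 1) was 0.29 for 31 of them in hypothalamus, beside 0.20 for all genes, and 0.35 for 29 of them in hippocampus, beside 0.26 for all genes. Cd74 had the largest SD, 0.89 in hypothalamus and 1.05 in hippocampus. Hypothalamus replicate 1 was the lowest library for 18 of the 31 genes (58.1%), beside 41.6% of all genes, and replicate 2 the highest for 15 (48.4%), beside 21.9%. In hippocampus replicate 2 was the lowest for 15 of 29 genes (51.7%), beside 36.2% of all genes, and replicate 4 the highest for 13 (44.8%), beside 23.6%. No test was made of these shares, since the genes are not independent of each other.

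**Figure D5:**
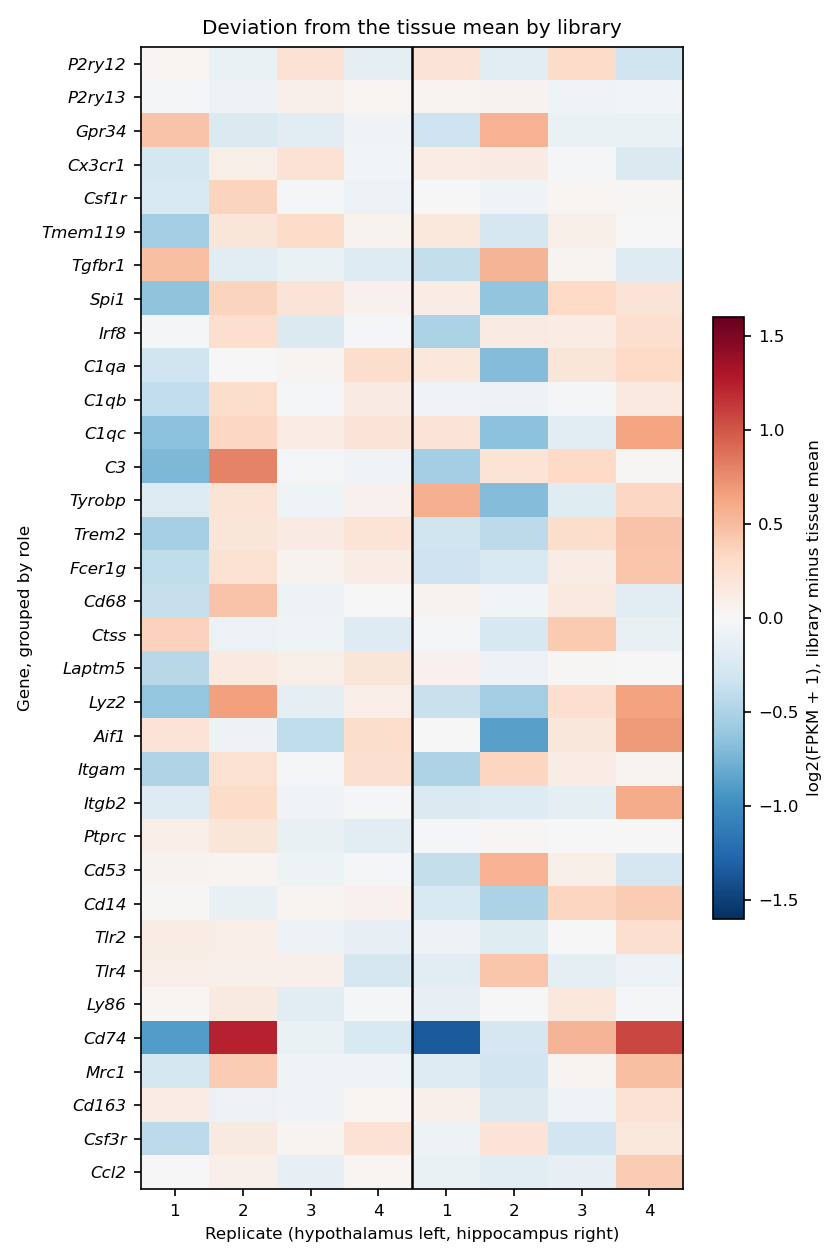
Deviation of each gene from its tissue mean in each library, on the scale of log2(FPKM + 1), with hypothalamus and hippocampus side by side. Cd74 shows the widest swings in both tissues, low in replicate 1 of each and high in hypothalamus replicate 2 and hippocampus replicate 4.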

How the data were processed

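Per the labels' protocols, poly-A selected RNA was sequenced by Illumina. FPKM were deposited by the authors, 1 table for each tissue. Bowtie, Bowtie2, TopHat, TopHat2, Cuffdiff and Cufflinks were used with build rn5, per the submitters' processing notes, and their versions were not given in the sources used here. Reads per library were unknown, so no counting interval could be given. Of low loci (under 0.05 FPKM), 87.5 to 92.8% shared fragment steps between pairs of replicates 2 to 4 (tolerance 0.01), and 7.38 to 10.6% in pairs with replicate 1. Replicate 1 of each tissue thus stood apart on this measure. The part of this in results that rest on replicate 1, such as the loci of Tgfbr1 and Irf8, was not tested beyond leaving replicate 1 out. Replicates of a tissue correlated at 0.969 to 0.995 across genes, and no pair was identical. In hypothalamus pairs with replicate 1 correlated at 0.980 to 0.983 and the other pairs at 0.993 to 0.995. In hippocampus these ranges overlapped.

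The members and lists were chosen with earlier results of these data known. Where a symbol had several loci, their FPKM were added (36 loci of the 34 genes for hypothalamus, 40 for hippocampus), and libraries were scaled by median-of-ratios factors over the shared symbols, 1.07 to 1.12 for hypothalamus and 0.892 to 0.950 for hippocampus. Genes averaging at least 1 FPKM over 8 libraries were compared on log2(FPKM + 1) by the separation rule stated with the results. Alternatives were limma, with and without a replicate block, other scalings, filters, loci and pseudocounts, and libraries left out. Values in every library are given for called members, a fixed set of main members, the 3 highest members of each tissue and members with a library that stands apart; from each other list the 2 called genes with the largest difference and the highest gene are named. Repeats of this rule were shortened to means. Genes named for the filter, or for a call or a lack of overlap in the other direction, stand outside it. The procedures were tested on simulated tables. Python 3.11.15, pandas 2.3.3, R 4.3.3 and limma 3.58.1 were used.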

Additional observations from a re-analysis of the deposited data

Results flagged for a closer look

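In 9 of 76 groups of 4 libraries (34 genes and 4 ratios or sums, in each tissue), a single library stood further from the other three than Dixon's 95% limit for 4 values allows; chance gives about 1 group in 20, or 3.8 here. In hypothalamus replicate 1 stood apart for Tgfbr1 (4.55 FPKM, the others 2.45 to 2.69), Trem2 (7.07, the others 11.7 to 12.5) and Laptm5 (15.4, the others 22.9 to 24.4). Tlr4 stood apart in hypothalamus replicate 4 (0.717 FPKM, the others 1.2 to 1.23) and in hippocampus replicate 2 (0.899, the others 0.235 to 0.311). In hippocampus replicate 4 Itgb2 had 6.15 FPKM (the others 3.03 to 3.27) and Ccl2 had 0.625 FPKM (the others 0.0844 to 0.143). The ratio of C1qb to C1qa was highest in replicate 2 of both tissues, at 1.26 in hypothalamus (the others 0.937 to 0.987) and 0.451 in hippocampus (the others 0.248 to 0.262).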

How the results depend on the processing

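With single libraries left out, 8 to 12 of 30 or 31 genes were called higher and 0 to 1 lower in hypothalamus (12.9 to 14.7% of all genes were higher), and their median difference was 0.47 to 0.67. The count of 1 lower came without hippocampus replicate 2 (Aif1), and likewise 1 was lower without replicate 1 of both tissues (Tgfbr1), when 11 were higher. Over all genes 1358 to 1546 were higher and 1380 to 1501 lower with single libraries left out, against 1402 and 1414. The share of all genes called higher is given in brackets for each other setting, all with 0 of the 34 genes lower. The counts higher were 13 with a pseudocount of 0.1 (16%), 7 of 19 with a filter at 5 FPKM (12.6%), 10 with no filter (9.16%) and 8 with quantile normalisation (13.2%), where P2ry13 at 0.93 and Spi1 at 0.95 were not called. They were 10 with upper-quartile scaling (15.7%), 12 with the values as deposited (18.1%), 7 of 25 with symbols of 1 locus (12.8%) and 10 with the highest locus (12.9%). Leaving out hippocampus replicates 3 and 4, chosen after the data were seen, gave 12 higher and 0 lower (15.2% of all genes higher), and leaving out hypothalamus replicate 2 as well gave 12 and 0 (14.8%). No called difference changed sign under these settings.

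The labels do not say whether equal replicate numbers mark the same animal. The correlations of deviations between libraries of the same number were −0.08, −0.06, 0.08 and 0.14, so the libraries were not treated as pairs. With a replicate block limma called 11 genes higher and 0 lower, and 1459 and 1439 of all genes, against 1455 and 1431 without it. Ratios of C1qb to C1qa with single libraries left out were 0.970 to 1.08 in hypothalamus and 0.254 to 0.321 in hippocampus. Those of C1qc to C1qa were 0.675 to 0.788 in hypothalamus and 0.369 to 0.434 in hippocampus. Genes under 1 FPKM were read at unknown depth, and no order among them is given.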
